A study of Arabidopsis thaliana with 30 samples.

Results

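The phytochrome-interacting factors (PIFs) and the regulators of shade avoidance around them were followed in leaves of Arabidopsis thaliana whose roots had been waterlogged. The set was fixed by name and comprised 10 of the 32820 genes in the deposited files: PIF1 (AT2G20180, PIL5 in the files), PIF3 (AT1G09530), PIF4 (AT2G43010), PIF5 (AT3G59060, PIL6 in the files), PIF7 (AT5G61270), PIL1 (AT2G46970), HFR1 (AT1G02340), PAR1 (AT2G42870), PAR2 (AT3G58850) and ATHB2 (AT4G16780, HB-2 in the files). All 10 were found, and 9 reached the mean of 1 FPKM (fragments scaled to gene length and library depth) needed for testing, as did 17491 genes in all. PIL1 lay under it. The leaves were systemic, that is, distant from the treated roots. Wild-type plants (WT, Col-0) gave untreated libraries at 0, 10, 30 and 60 min and waterlogged ones at 10, 30 and 60 min, and plants labelled rbohD gave untreated libraries at 0 and 60 min and waterlogged ones at 60 min, 3 libraries in each of the 10 groups. RBOHD encodes a respiratory burst oxidase of the plasma membrane, the rbohD allele and the age of the plants are not given in the sources used here, and the series text speaks of repeats made from 15 plants without saying whether that is per repeat. Since the labels do not say how far the repeats were separate, the p-values below measure the spread between these libraries, which may be technical.

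PIFs are basic helix-loop-helix (bHLH) transcription factors that bind the light-activated form of phytochrome and are degraded, or held off DNA, as a result. In shade, where far-red light is enriched and phytochrome falls inactive, PIFs accumulate or become active and switch on growth genes, among them the homeodomain factor gene ATHB2. They also switch on HFR1, PAR1, PAR2 and PIL1, bHLH proteins that pair with PIFs and restrain them, so that shade growth carries its own brake. PIFs bind the G-box (CACGTG) and the PBE-box (CATGTG, or CACATG on the other strand).

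Because PIF genes and their inhibitors can be targets of PIFs, the 1000 bases before each annotated gene start were searched for both motifs on both strands in the RefSeq genome TAIR10.1. A G-box stood before 3 of the 10 genes, PIF5, HFR1 and PAR1, against 14.8% of 27440 gene starts. A PBE-box stood before 5 of 10, PIF4, PIF7, HFR1, PAR1 and PAR2, with 12 sites in all, against 37.7% of gene starts. The nearest G-box was that of PIF5, 165 bases before the start, and 7.09% of all gene starts had a G-box within 300 bases. The related genes PAR1 and PAR2 each held PBE-boxes in the same 65-base stretch, 776, 742 and 731 bases before the start of PAR1 and 775, 739, 731 and 729 bases before that of PAR2, and those of PAR1 lay inside the neighbouring gene AT2G09405. A match is only a run of letters, and binding was not measured. The sites are printed 5′ to 3′ in the direction of each gene, with the motif in capitals. The PIF4 and PIF5 sites are shown because these were the most abundant PIF transcripts of the set. The PAR stretches are shown because PBE-boxes cluster there. In the PAR2 stretch the last pair of PBE-boxes overlap each other. The stretch was set around sites already found, and the share of all gene starts with such a cluster was not computed.
PIF5, G-box, chr3:21830977-21831022, minus strand: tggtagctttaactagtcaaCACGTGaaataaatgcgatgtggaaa
PIF4, PBE-box, chr2:17885574-17885619, plus strand: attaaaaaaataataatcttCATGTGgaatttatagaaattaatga
PAR1, PBE-boxes, chr2:17838339-17838403, minus strand: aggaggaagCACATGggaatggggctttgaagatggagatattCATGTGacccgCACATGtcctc
PAR2, PBE-boxes, chr3:21761111-21761175, minus strand: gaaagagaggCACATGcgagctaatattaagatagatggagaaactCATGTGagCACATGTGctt

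Before the members are described, some features of the whole series bear on them. The authors' confidence bounds imply 10889000 to 13314000 fragments per library, to the nearest 1000, and replicates of a group correlated at 0.974 to 0.988 across genes. RBOHD itself was higher in rbohD libraries than in WT at 0 min, lower in the 60 min controls and level after waterlogging. It stood at 17.4 ± 0.261 FPKM in WT and 20.99 ± 0.882 FPKM in rbohD libraries at 0 min (mean ± SD, n = 3 here and below). The levels were 23.4 ± 1.97 and 12.8 ± 0.379 FPKM in the 60 min controls, and 13.5 ± 0.259 and 13.5 ± 1.95 FPKM after 60 min of waterlogging. Every statement on rbohD therefore concerns the libraries labelled rbohD. The nuclear 18S ribosomal RNA gene was listed at 4050 to 5754 FPKM in 10 libraries, namely all 9 labelled rbohD and WT waterlogging 60 min replicate 3, and at 1473 to 2640 FPKM in the remaining 20. The genotype label and this split cannot be told apart except through that 1 WT library. All 5 leaf markers were abundant, with RBCS1A at 12065 FPKM or more. Of 6 root markers, RHD6 was at 0 in all 30 libraries and IRT1, COBL9, CASP1 and CASP2 were under 1 FPKM, while PYK10 stood at 237 to 242 FPKM in the rbohD libraries at 0 min, at 53.8 to 61.8 FPKM in their 60 min controls and at 73.4 to 110.2 FPKM in all other groups. The summed level of the 5 leaf markers was 48604 to 50996 FPKM in the rbohD libraries at 0 min and 53750 FPKM or more elsewhere.

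PIF5 and PIF4 were the most abundant members. On the FPKM scale, which divides by gene length, the means over 30 libraries were 129 for PIF5, 87.1 for PIF4, 35.4 for PIF7, 16.9 for PIF1 and 3.94 for PIF3. Among the inhibitors HFR1 had a mean of 19.7 FPKM, PAR2 11.0, PAR1 3.54 and PIL1 0.811 FPKM, and ATHB2 stood at 11.2 FPKM. The fragments behind a single value, as implied by the authors' bounds, ran from 2419 to 3151 for PIF5, from 22.8 to 152 for PAR1 and from 8.45 to 32.5 for PIL1, so that PIL1 and PAR1 are the least precise members.

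**Figure D1:**
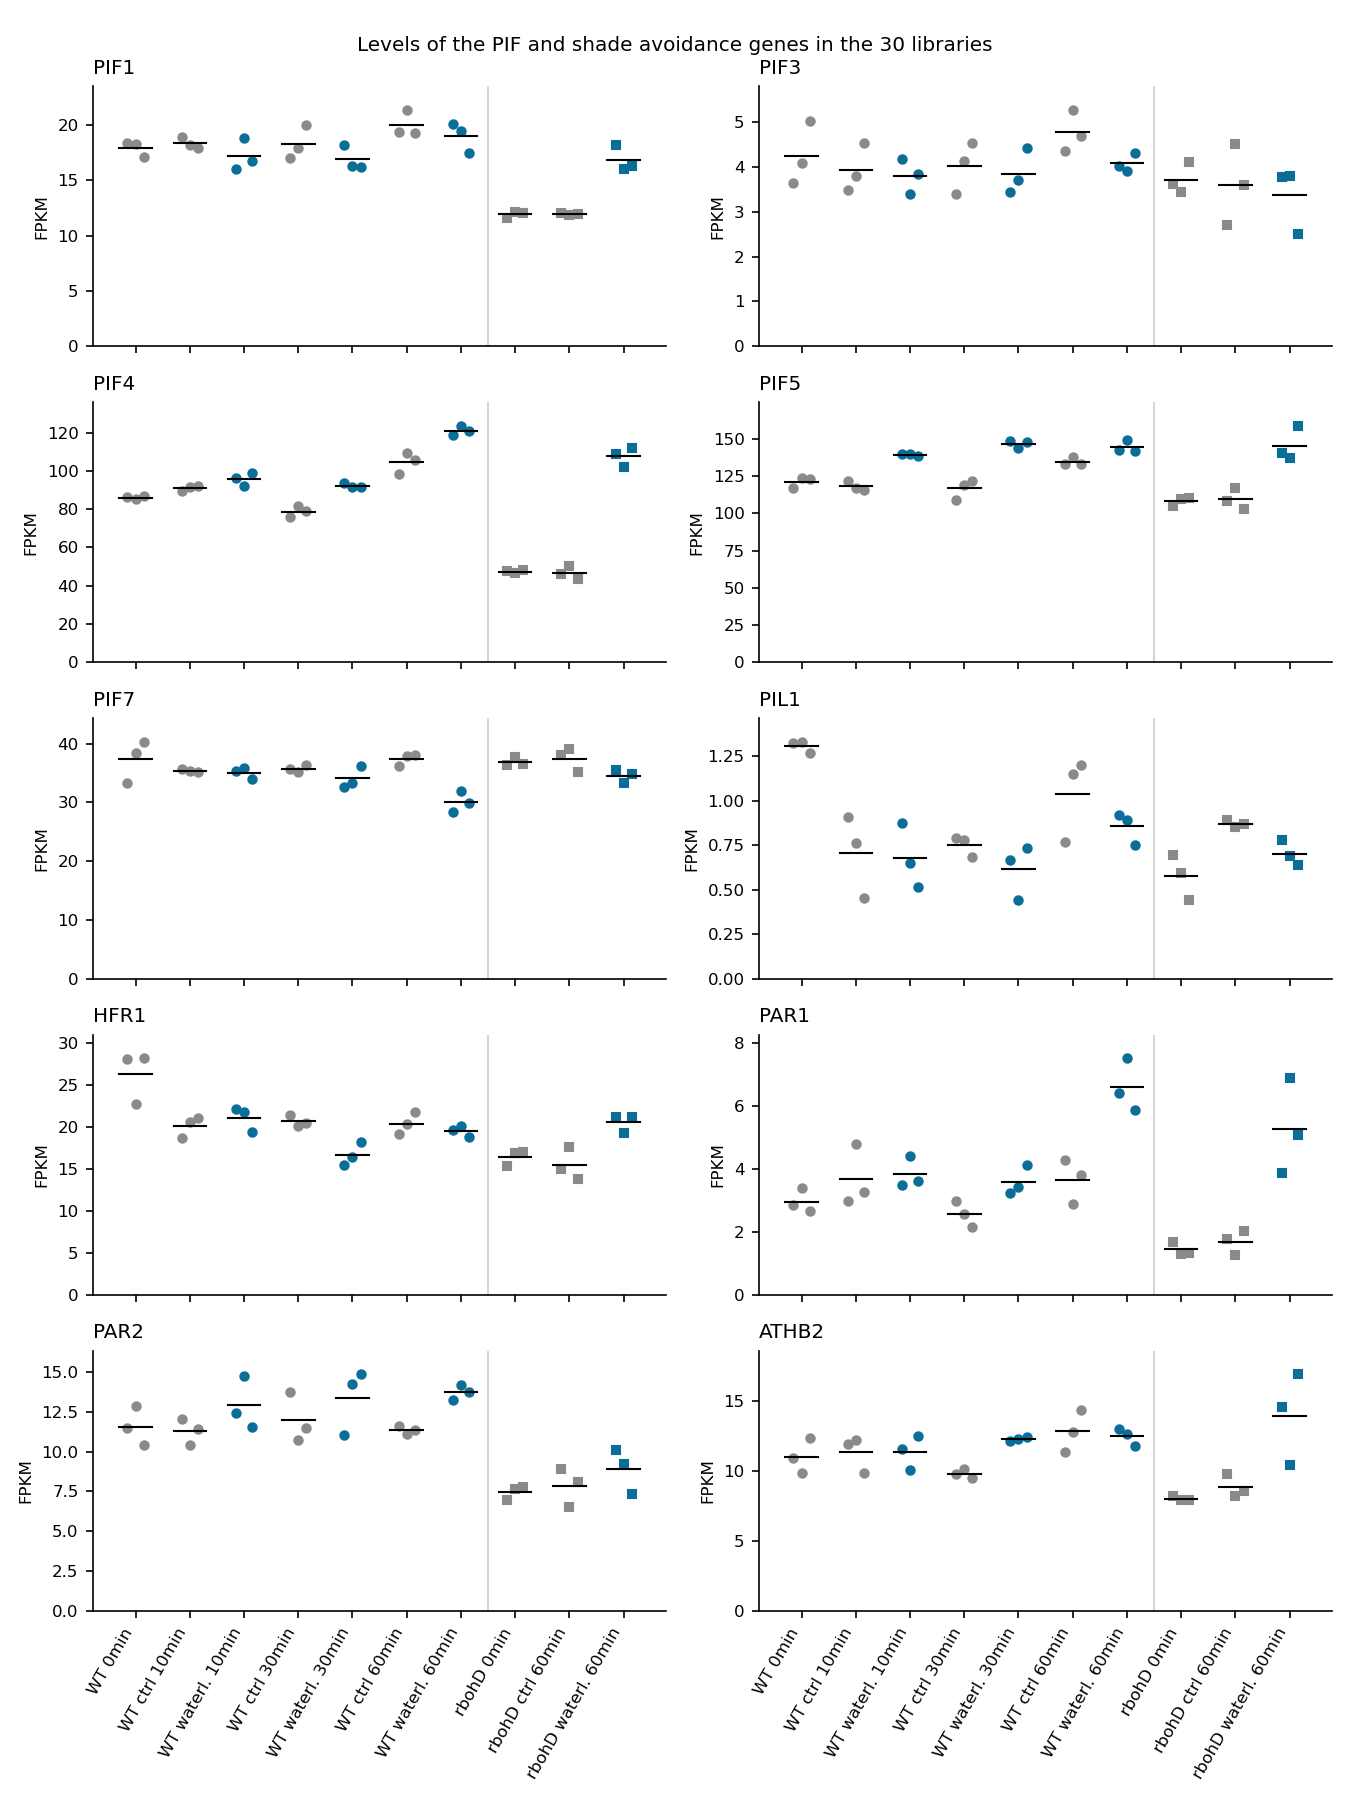
Level of each of the 10 genes in FPKM (vertical axes, each from 0) in the 30 libraries, ordered by group on the horizontal axis; points are libraries, black lines group means, grey untreated and blue waterlogged, circles WT and squares libraries labelled rbohD. PIF4 stood at 43.8 to 50.4 FPKM in the 6 untreated rbohD libraries and at 75.7 FPKM or more in every other library.

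PIF4 (chromosome 2, 17886101 to 17889087), a promoter of stem and petiole growth in shade and warmth, showed the widest range among the PIFs of the set. In untreated WT leaves its level was 86.4, 85.03 and 86.6 FPKM at 0 min, 89.7, 91.5 and 92.1 at 10 min, 75.7, 81.5 and 79.0 at 30 min and 98.3, 109 and 106 at 60 min. Waterlogged WT leaves had 96.2, 92.0 and 98.9 FPKM at 10 min, 93.5, 91.6 and 91.8 at 30 min and 119, 123 and 121 at 60 min. The waterlogged libraries lay above all their time-matched controls at 30 and 60 min, and overlapped them at 10 min. In libraries labelled rbohD PIF4 stood at 47.8, 46.4 and 48.2 FPKM at 0 min, 46.4, 50.4 and 43.8 in the 60 min controls, and 109, 102 and 112 after 60 min of waterlogging. Both untreated rbohD groups were the lowest of the 10 groups and overlapped each other, while the waterlogged rbohD group lay among the highest, next to the WT 60 min controls.

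The log2 fold change of PIF4, fitted with limma on log2(FPKM + 1), was 0.07 (SE 0.05, adjusted p 0.637) at 10 min of waterlogging in WT, 0.23 (SE 0.05, adjusted p 0.00159) at 30 min and 0.21 (SE 0.05, adjusted p 0.00161) at 60 min. In rbohD libraries PIF4 rose 2.30-fold at 60 min, a log2 fold change of 1.18 (SE 0.05, adjusted p 5.29e-16). The difference between these 60 min effects, tested as an interaction, was 0.97 (SE 0.07, adjusted p 6.34e-11). PIF4 was lower in rbohD libraries by a log2 difference of -0.85 (SE 0.05, adjusted p 1.03e-12) at 0 min and -1.14 (SE 0.05, adjusted p 4.11e-15) in the 60 min controls, against -0.17 (SE 0.05, adjusted p 0.00898) after waterlogging. The interaction and the comparisons within and between genotypes at 60 min share their control libraries and are not independent of each other. In bulk leaf RNA, fewer cells that express a gene and less RNA per cell cannot be told apart. The last difference fell short without rbohD waterlogging 60 min replicate 2 (-0.13, adjusted p 0.0591) and in a fit of the compared groups alone (-0.17, adjusted p 0.0993), and with a term for the 18S level it was -0.16 (adjusted p 0.104).

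PIF5 (chromosome 3, 21827905 to 21830837), the nearest relative of PIF4, was the member that rose earliest. At 10 min it stood at 122, 117 and 116 FPKM in WT controls and at 140.1, 140.0 and 139 after waterlogging. At 30 min the controls had 109, 119 and 122 FPKM and the waterlogged leaves 149, 144 and 148. At 60 min the levels were 133, 138 and 133.5 against 143, 149 and 142 FPKM. Waterlogged libraries lay above their controls without overlap at all 3 times. The rise passed the test at 10 min (log2 fold change 0.24, SE 0.05, adjusted p 0.00493) and 30 min (0.33, SE 0.05, adjusted p 5.23e-05). At 60 min the value was 0.10 (SE 0.05, adjusted p 0.16). In rbohD libraries PIF5 stood at 105, 109.7 and 110.1 FPKM at 0 min, 108, 117 and 103 in the 60 min controls and 141, 137 and 159 after waterlogging. All 3 waterlogged values exceeded the 6 untreated ones, with a log2 fold change of 0.41 (SE 0.05, adjusted p 4.57e-07) and an interaction of 0.31 (SE 0.07, adjusted p 0.00238).

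PIF1 (chromosome 2, 8704024 to 8707009), known as a repressor of seed germination and of chlorophyll synthesis in the dark, kept a narrow range in WT, where the 21 libraries lay between 16.0 and 21.4 FPKM. In rbohD libraries its level was 11.6, 12.2 and 12.1 FPKM at 0 min, 12.01, 11.8 and 11.96 in the 60 min controls, and 18.2, 16.1 and 16.3 after waterlogging. All 6 untreated rbohD libraries were below every WT library, and the waterlogged ones fell within the WT range. PIF1 rose in rbohD libraries by a log2 fold change of 0.46 (SE 0.07, adjusted p 2.5e-06), while the WT values at 10, 30 and 60 min were -0.09, -0.11 and -0.08 and none passed the test. The interaction was 0.54 (SE 0.09, adjusted p 9.15e-05). PIF1 overlaps the annotated gene AT2G20170 and PIF7 overlaps AT5G61260, and since strand use in counting is not given in the sources used here, reads of such pairs may not be separated.

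PIF7 (chromosome 5, 24638491 to 24640765), the PIF on which rapid growth responses to shade depend most, was the only tested member whose call in WT at 60 min was a fall. It stood at 36.2, 37.8 and 38.1 FPKM in the WT 60 min controls and at 28.3, 32.0 and 30.0 FPKM after waterlogging. The groups did not overlap, and the log2 fold change was -0.31 (SE 0.06, adjusted p 0.000225). In rbohD libraries PIF7 had 38.1, 39.2 and 35.1 FPKM in controls and 35.5, 33.3 and 34.8 after waterlogging, groups that overlapped (-0.11, SE 0.06, adjusted p 0.0989) and that differed past the threshold without rbohD control 60 min replicate 3 (-0.16, adjusted p 0.0367). The interaction of 0.19 (SE 0.08, adjusted p 0.0715) did not pass, although it did under quantile normalization (0.22, adjusted p 0.0266), without WT waterlogging 60 min replicate 2 (0.24, adjusted p 0.0355) and without rbohD control 60 min replicate 2 (0.23, adjusted p 0.0478). PIF3 (chromosome 1, 3075768 to 3079654), the founding member of the family and a repressor of seedling greening, ranged from 2.51 to 5.28 FPKM over all libraries and passed the test in none of the 17 comparisons. Its closest value was -0.34 (SE 0.14, adjusted p 0.0502) between the genotype labels in the 60 min controls, a difference that passed without rbohD control 60 min replicate 2 (-0.48, adjusted p 0.0102) and, at an unchanged -0.34, with the replicate number as a block (adjusted p 0.0429), with protein-coding nuclear genes at equal totals (0.0382) and with trend and robust options in eBayes (0.0477).

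PIF1, PIF3, PIF4, PIF5 and PIF7 together gave 267 ± 7.20 summed FPKM in WT at 0 min. The sum was 302 ± 9.92 in WT controls at 60 min and 319 ± 8.04 after 60 min of waterlogging. In rbohD libraries the sum was 208 ± 3.57 at 0 min, 209 ± 12.8 in the 60 min controls and 308 ± 15.9 after waterlogging. PIF4 made up 22.8% ± 0.612 and 22.4% ± 0.235 of the sum in the untreated rbohD groups, 34.96% ± 0.477 after waterlogging there, and 31.1% to 37.9% in the WT groups. The ratio of PIF5 to PIF4 was 2.28 ± 0.0836 and 2.34 ± 0.0192 in the untreated rbohD groups, 1.35 ± 0.0636 in the waterlogged one, and 1.20 to 1.59 across WT groups. The sum leaves out PIF-clade genes outside the set, among them UNE10 (PIF8), and is not that of all PIF genes. At 60 min UNE10 had means of 118 FPKM in rbohD controls and 40.5 FPKM after waterlogging. In WT these were 64.6 and 35.2 FPKM, so UNE10 fell where the sum rose. These sums and shares are descriptions and were not tested.

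**Figure D2:**
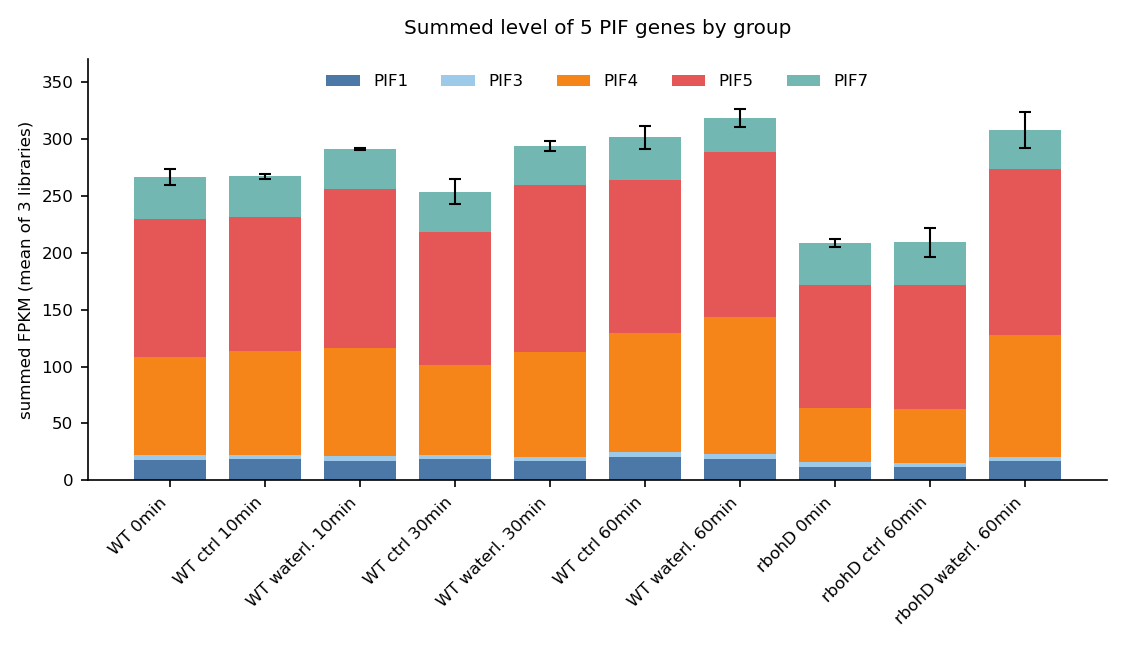
Summed level of PIF1, PIF3, PIF4, PIF5 and PIF7 in FPKM (vertical axis, from 0) for the 10 groups; coloured segments are means of 3 libraries and error bars the SD of the sum. Untreated rbohD groups reached 208 and 209 FPKM, and the waterlogged rbohD group 308 FPKM beside 319 FPKM in waterlogged WT.

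PAR1 (chromosome 2, 17836416 to 17837618), an atypical bHLH protein that pairs with PIF4 and keeps it off DNA, had the largest fold change of any member. In WT its level was 2.85, 3.39 and 2.65 FPKM at 0 min, and 4.27, 2.89 and 3.81 FPKM in the 60 min controls. After 60 min of waterlogging it was 6.41, 7.52 and 5.89 FPKM, above every untreated WT library. The log2 fold change in WT was 0.06 (SE 0.16, adjusted p 0.952) at 10 min, 0.37 (SE 0.16, adjusted p 0.169) at 30 min and 0.71 (SE 0.16, adjusted p 0.00143) at 60 min. Libraries labelled rbohD had 1.69, 1.303 and 1.34 FPKM at 0 min, 1.78, 1.26 and 2.03 in the 60 min controls and 3.88, 6.89 and 5.07 after waterlogging. The waterlogged values spread widely but all exceeded the untreated ones, and PAR1 rose 3.12-fold in the means, a log2 fold change of 1.20 (SE 0.16, adjusted p 8.41e-07). The interaction of 0.49 (SE 0.23, adjusted p 0.104) did not pass, though it did without WT control 60 min replicate 2 (0.61, adjusted p 0.0486) and without rbohD waterlogging 60 min replicate 1 (0.66, adjusted p 0.0268). Adding 1 before taking logs understates the change of a gene at this level.

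PAR2 (chromosome 3, 21759350 to 21760390) is the close relative of PAR1, and whether their changes differ was not tested. After 60 min of waterlogging PAR2 stood at 13.2, 14.2 and 13.7 FPKM in WT against 11.6, 11.1 and 11.4 FPKM in controls, groups without overlap whose log2 difference of 0.25 (SE 0.12, adjusted p 0.122) passed in a fit of those groups alone (0.25, adjusted p 0.00985). In rbohD libraries the levels were 10.12, 9.21 and 7.36 FPKM after waterlogging and 8.89, 6.502 and 8.12 FPKM in controls, which overlapped (0.16, SE 0.12, adjusted p 0.249). PAR2 and PIF4 were the members called lower in rbohD libraries in all 3 shared conditions, PAR2 with log2 differences (SE 0.12 each) of -0.57 (adjusted p 0.000643) at 0 min, -0.49 (adjusted p 0.0019) in the 60 min controls and -0.58 (adjusted p 0.000519) after waterlogging. With a term for the 18S level the first 2 values were -0.57 and -0.50, with an SE of 0.22 each, and were no longer called (adjusted p 0.0984 and 0.133). Whether the genotype differences of PAR2 and the other members differ from each other was not tested.

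HFR1 (chromosome 1, 465616 to 467880), a bHLH protein that sequesters PIFs and is itself a target of the COP1 ubiquitin ligase, was highest in WT leaves at 0 min, at 28.0, 22.7 and 28.1 FPKM. The untreated WT libraries had 18.7, 20.5 and 21.1 FPKM at 10 min, 21.4, 20.1 and 20.4 at 30 min and 19.1, 20.3 and 21.8 at 60 min, all under the lowest 0 min value. The log2 differences from 0 min, each with an SE of 0.09, were -0.37 (adjusted p 0.00834) at 10 min, -0.33 (adjusted p 0.0289) at 30 min and -0.35 (adjusted p 0.00688) at 60 min. All 3 fell short in fits of only the groups compared (adjusted p 0.114, 0.18 and 0.0971). The first 2 also fell short without WT 0 min replicate 3 (adjusted p 0.055 and 0.146), the first without WT control 10 min replicate 1 (0.0508), and the second without WT 0 min replicate 1 (0.129), WT control 30 min replicate 2 (0.105) or 3 (0.0889), or with no filter on low values (0.0525). In WT after 30 min of waterlogging HFR1 stood at 15.4, 16.4 and 18.2 FPKM, under all 3 controls (-0.30, SE 0.09, adjusted p 0.0228). That call was lost without WT control 30 min replicate 1 or 3 and without WT waterlogging 30 min replicate 1 or 2, and in a fit of those groups alone, with adjusted p between 0.0531 and 0.127. In rbohD libraries HFR1 had 14.9, 17.6 and 13.8 FPKM in 60 min controls and 21.1, 19.3 and 21.2 FPKM after waterlogging, a rise without overlap (0.40, SE 0.09, adjusted p 0.000364) and an interaction of 0.45 (SE 0.12, adjusted p 0.00503).

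PIL1 (chromosome 2, 19295431 to 19297858), among the fastest shade-induced genes of seedlings, was listed at 1.32, 1.33 and 1.27 FPKM in WT at 0 min. It ranged from 0.441 to 1.20 FPKM in all other libraries. It was left out of the tests for its low level. In a fit without the filter on low values PIL1 was lower in rbohD libraries at 0 min (0.697, 0.595 and 0.444 FPKM, log2 difference -0.55, SE 0.10, adjusted p 0.000193) and lower in untreated WT leaves at 10 min (-0.44, adjusted p 0.00913) and 30 min (-0.40, adjusted p 0.0312) than at 0 min. Against time-matched controls its waterlogging values were -0.02, -0.12 and -0.13 in WT at 10, 30 and 60 min and -0.14 in rbohD libraries, with none past the threshold (smallest adjusted p 0.361). At this level adding 1 before taking logs understates changes. The ratio of means was 0.442 for rbohD to WT at 0 min and 0.805 for waterlogging in rbohD libraries.

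ATHB2 (chromosome 4, 9449114 to 9450905), a homeodomain-leucine zipper class II (HD-Zip II) factor and a classic shade-induced promoter of elongation, stood at 11.4, 12.8 and 14.4 FPKM in the WT 60 min controls and 13.0, 12.7 and 11.8 after waterlogging. These groups overlapped (-0.04, SE 0.12, adjusted p 0.863). At 30 min the WT controls had 9.78, 10.2 and 9.48 FPKM and the waterlogged leaves 12.1, 12.3 and 12.4, without overlap but short of the threshold (0.30, SE 0.12, adjusted p 0.117), which a fit of those groups alone passed (0.30, adjusted p 0.00843). In rbohD libraries ATHB2 was at 8.19, 7.92 and 7.93 FPKM at 0 min, at 9.80, 8.25 and 8.56 in the 60 min controls and at 14.5, 10.4 and 16.9 after waterlogging. The rise was 0.58 (SE 0.12, adjusted p 0.000198), and the interaction of 0.62 (SE 0.17, adjusted p 0.00599) fell short in a fit of the 4 groups alone (adjusted p 0.051).

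Across the 9 tested members, waterlogging in WT called 1 gene higher at 10 min, where 4.14% of all tested genes were called higher. At 30 min it called 2 higher and 1 lower (7.78% and 4.10% of all tested genes), and at 60 min again 2 higher and 1 lower (14.7% and 15.0%). The members' median log2 fold changes were 0.06, 0.14 and -0.04, beside -0.01, -0.02 and 0.01 over all tested genes. In rbohD libraries 6 members were called higher and 0 lower at 60 min, in a comparison that called 59.0% of all tested genes, 26.3% higher and 32.7% lower. The median was 0.41 against -0.05 over all genes. The 6 were PIF1, PIF4, PIF5, HFR1, PAR1 and ATHB2, and the groups did not overlap in 6 of the 9 tested members, where 55.9% of all tested genes did not overlap. The groups of PIL1, which was not tested, did not overlap either, with the waterlogged libraries lower. The interaction called 5 members, all more positive in rbohD libraries, with 34.4% of all genes called, 15.1% of all genes being more positive there.

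**Figure D3:**
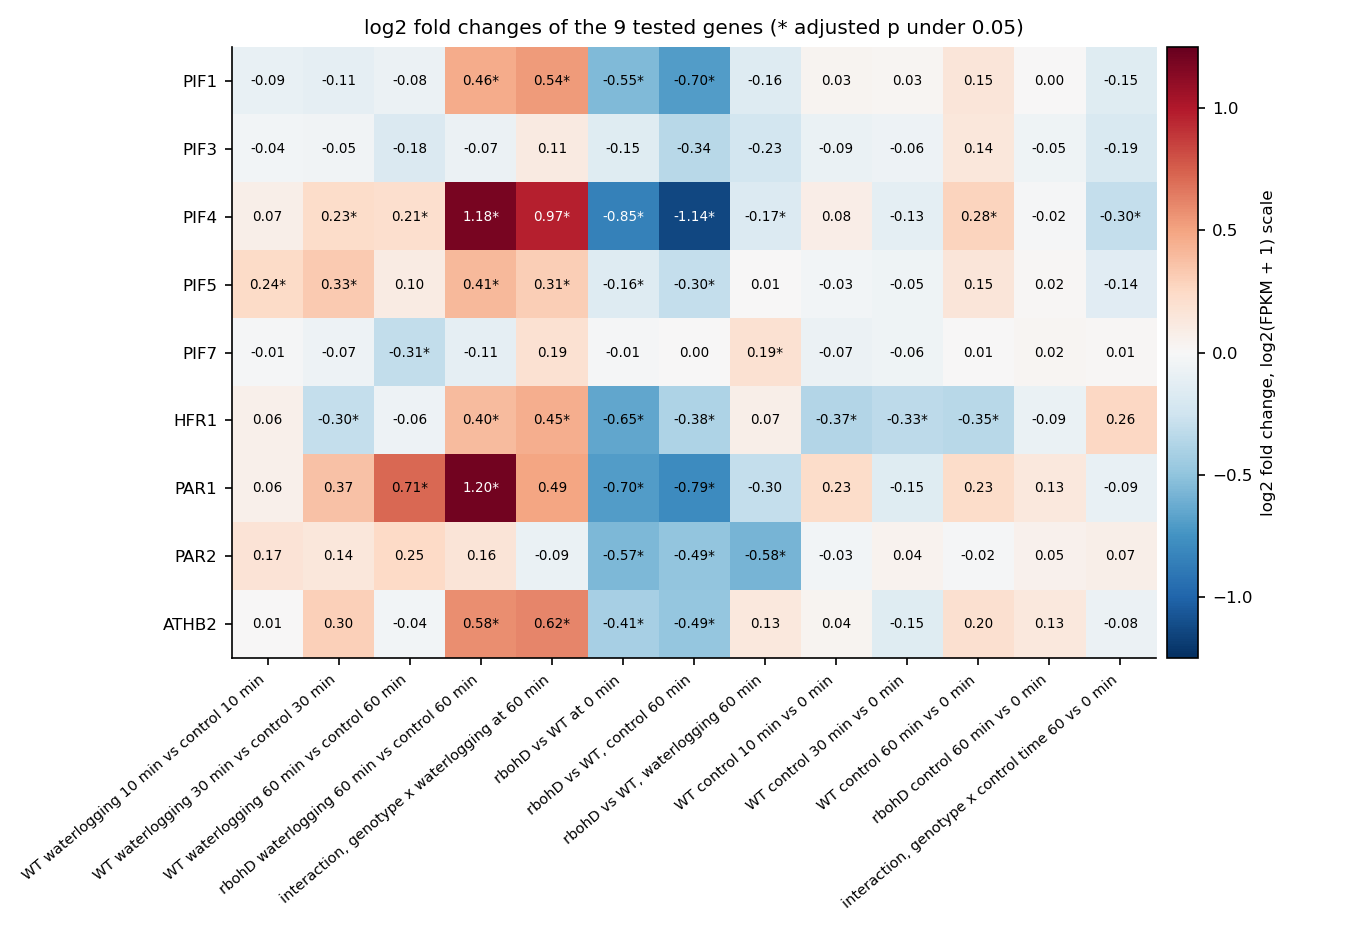
Log2 fold changes on the log2(FPKM + 1) scale of the 9 tested genes (rows) in 13 comparisons (columns); red is higher and blue lower in the first-named group, and an asterisk marks a limma adjusted p under 0.05. The rbohD waterlogging column holds 6 called rises up to 1.20 for PAR1, and the columns of rbohD against WT in untreated leaves hold 7 called differences each, all negative.

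Between the genotype labels 7 members were lower in rbohD libraries at 0 min and 0 were higher, where 32.4% of all genes were called and 16.0% were lower. In the 60 min controls there were again 7 lower and 0 higher (38.6% called, 19.6% lower and 19.0% higher). They were PIF1, PIF4, PIF5, HFR1, PAR1, PAR2 and ATHB2 in both. On the log2(FPKM + 1) scale the differences ran from -0.16 for PIF5 to -0.85 for PIF4 at 0 min and from -0.30 to -1.14 for the same genes at 60 min. Adding 1 shrinks the difference of PAR1 most, as its level is the lowest of these. By ratio of means, rbohD to WT, PAR1 stood at 0.487 and PIF4 at 0.552 at 0 min. In the 60 min controls the ratios were 0.463 and 0.448. After waterlogging 3 members differed, PAR2 and PIF4 lower and PIF7 higher (0.19, SE 0.06, adjusted p 0.0109), with 34.6% of all genes called. All libraries labelled rbohD carried the high 18S level. With a term for that level, which is separated from genotype only by WT waterlogging 60 min replicate 3, 3 members remained called at 0 min (PIF1 -0.38, PIF4 -0.84 and HFR1 -0.57), 2 in the 60 min controls (PIF1 -0.53 and PIF4 -1.14) and 1 after waterlogging (PAR2 -0.58). The term widens the SE, for PAR2 from 0.12 to 0.22 in untreated leaves, and some values that lost the call hardly moved. In the 60 min controls PIF5 was at -0.26 and PAR2 at -0.50, at 0 min PAR2 was at -0.57, and after waterlogging PIF4 was at -0.16 and PIF7 at 0.20. Others came out smaller, PAR1 at -0.49 and -0.58, ATHB2 at -0.30 and -0.37 at 0 min and in the 60 min controls, PIF5 at -0.12 at 0 min and HFR1 at -0.31 in the 60 min controls. At 0 min the call of ATHB2 was also lost without WT 0 min replicate 3 (-0.33, adjusted p 0.0598), and that of PIF5 without WT 0 min replicate 2 or 3 or rbohD 0 min replicate 1 (adjusted p 0.0659 to 0.0843), in a fit of those groups alone (0.0505) and with protein-coding nuclear genes at equal totals (0.0523). After waterlogging the PIF7 difference was lost without WT waterlogging 60 min replicate 1 (0.15, adjusted p 0.0715) and in a fit of those groups alone (0.19, adjusted p 0.0913). There PIF1 passed without WT waterlogging 60 min replicate 3 or rbohD waterlogging 60 min replicate 1 (-0.22 in both, adjusted p 0.0225 and 0.0242), and PAR1 (-0.48, adjusted p 0.0287) and ATHB2 (0.31, adjusted p 0.0257) passed without rbohD waterlogging 60 min replicate 2. The 18S split puts 10 of the 30 libraries on the high side. The within-rbohD comparison and the WT comparisons at 10 and 30 min lie on a single side of it. The 5 interactions all passed with the term and without WT waterlogging 60 min replicate 3. Since that 1 library alone sets the size of the term, these are not 2 separate checks. Neither can show the part of the 18S level in the interactions.

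In untreated WT leaves 1, 1 and 2 of the 9 tested members (11.1%, 11.1% and 22.2%) were called against 0 min at 10, 30 and 60 min. PIF4 rose in WT controls from 0 to 60 min by a log2 difference of 0.28 (SE 0.05, adjusted p 0.000209), and HFR1 was the single member called at 10 min (7.94% of genes called) and 30 min (3.92%) and the second at 60 min (12.5%). In rbohD libraries 0 of 9 members were called between 0 and 60 min by limma, where 23.2% of genes were, and 0 had an unadjusted p under 0.05, the smallest being 0.291. The difference between the genotypes in this change was -0.30 (SE 0.07, adjusted p 0.00218) for PIF4, the only member called of 9 (22.1% of genes called), joined by HFR1 (0.36, adjusted p 0.0277) without WT 0 min replicate 2. Against 0 min rather than matched controls, waterlogged WT leaves at 60 min had 3 members higher and 2 lower (36.9% of genes called). PAR1 was higher by 0.94 (SE 0.16, adjusted p 5.07e-05), PIF4 by 0.49 (SE 0.05, adjusted p 1.47e-08) and PIF5 by 0.25 (SE 0.05, adjusted p 0.000416). HFR1 was at -0.41 (SE 0.09, adjusted p 0.000481) and PIF7 at -0.30 (SE 0.06, adjusted p 0.000191). At 10 min the same contrast called PIF4 (0.15), PIF5 (0.20) and HFR1 (-0.30), where 14.6% of genes were called, and without WT 0 min replicate 1 none of these passed (adjusted p 0.0747, 0.0528 and 0.0893). At 30 min it called PIF5 (0.28, adjusted p 0.000367) and HFR1 (-0.62, adjusted p 5.17e-06), with 21.4% of genes called. In rbohD libraries it called 6 members at 60 min, all higher (54.7% of genes called).

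Further genes of light and shade signalling were taken from 7 lists holding 62 genes. Their counts at 60 min of waterlogging stand beside 14.7% of all tested genes called higher and 15.0% lower in WT, and 26.3% higher and 32.7% lower in rbohD libraries. Of the 4 other PIF-clade bHLH genes 1 was tested, UNE10 (PIF8, AT4G00050), which restrains phytochrome A responses in seedlings. It moved opposite in sign to PIF4: UNE10 stood at 62.7, 68.4 and 62.8 FPKM in WT 60 min controls and 36.4, 36.3 and 33.0 after waterlogging, and at 112, 124 and 118 FPKM in rbohD controls and 42.3, 39.4 and 39.9 after waterlogging. None of these pairs of groups overlapped. Its log2 fold changes were -0.01 (adjusted p 0.98), -0.23 (adjusted p 0.00226) and -0.86 (SE 0.05, adjusted p 3.61e-12) at 10, 30 and 60 min in WT and -1.52 (SE 0.05, adjusted p 1.03e-17) in rbohD libraries, with an interaction of -0.66 (SE 0.07, adjusted p 9.23e-08). In untreated leaves UNE10 was higher in rbohD libraries, by 0.36 (adjusted p 5.23e-06) at 0 min and 0.86 (adjusted p 1.5e-12) at 60 min.

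Among the 8 photoreceptor genes 3 rose and 2 fell in WT at 60 min, and 3 rose and 5 fell in rbohD libraries, where 59.0% of all tested genes were called. PHYB, the main phytochrome of light-grown plants, stood at 36.3, 34.9 and 34.9 FPKM in rbohD controls and 16.5, 14.5 and 16.0 after waterlogging. These groups lay far apart, with a log2 fold change of -1.13 (SE 0.05, adjusted p 5.6e-16), while the value in WT was -0.24 (SE 0.05, adjusted p 0.000216). PHYE, a minor phytochrome of the same branch, fell in rbohD libraries (-0.95, adjusted p 1.23e-11) and in WT (-0.28, adjusted p 0.00226). CRY1, a blue-light receptor, rose in rbohD libraries (0.93, adjusted p 4.06e-15) and in WT (0.26, adjusted p 3.27e-05). COP1 and the SPA proteins form the ubiquitin ligase that removes light-signalling factors, HFR1 among them. Of its 5 genes 4 fell in WT at 60 min (median -0.43), where 15.0% of all tested genes fell, and 5 in rbohD libraries (median -0.85), where 32.7% fell. SPA3 went from 51.9, 52.1 and 53.3 FPKM to 15.995, 16.1 and 15.988 FPKM in rbohD libraries (-1.65, SE 0.05, adjusted p 5.25e-19). SPA4 changed there by -1.38 (adjusted p 2.37e-16) and COP1 by -0.85 (adjusted p 4.6e-10). In untreated leaves at 60 min 4 of these 5 genes were higher in rbohD libraries than in WT (median 0.45), as were 19.0% of all tested genes.

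DELLA proteins hold PIFs off DNA when gibberellin is low. Of their 5 genes 1 rose and 4 fell in WT at 60 min (14.7% and 15.0% of all tested genes), and 2 rose and 3 fell in rbohD libraries (26.3% and 32.7%). RGL2 fell in WT (-0.83, adjusted p 2.2e-09) and in rbohD libraries (-1.01, adjusted p 1.18e-11). RGA did so too (-0.35, adjusted p 1.25e-05, and -0.56, adjusted p 2.04e-09), as did RGL1 (-0.40, adjusted p 0.00195, and -0.23, adjusted p 0.036). Of 9 further HD-Zip II genes 6 were tested, with 1 higher and 1 lower in WT and 2 higher and 2 lower in rbohD libraries, a share of called genes of 66.7% beside 59.0% of all tested genes there. HAT1, a shade-induced relative of ATHB2, rose in WT (0.45, adjusted p 5.8e-06) and in rbohD libraries (1.02, adjusted p 1.74e-12). HAT2 fell in WT (-0.39, adjusted p 0.00201) and rose in rbohD libraries (0.53, adjusted p 2.76e-05), with an interaction of 0.92 (SE 0.13, adjusted p 5.18e-06). HAT22 fell in rbohD libraries (-0.34, adjusted p 1.95e-05) and had a value of -0.03 (adjusted p 0.761) in WT.

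Of 16 shade and PIF target genes 10 were tested, and 3 rose and 4 fell in WT at 60 min (median -0.05), while 5 rose and 3 fell in rbohD libraries (median 0.46). Of all tested genes 14.7% rose and 15.0% fell in WT, and 26.3% rose and 32.7% fell in rbohD libraries. The list mixes genes of auxin synthesis, growth and light signalling. BBX25 (STH in the files), a B-box protein, went from 110.9, 109.8 and 113 FPKM to 37.5, 40.5 and 42.8 FPKM in rbohD libraries. The log2 fold change was -1.45 (SE 0.05, adjusted p 3.72e-17) there and -0.68 (SE 0.05, adjusted p 2.47e-10) in WT. Its relative BBX24 (STO in the files) fell in rbohD libraries (-0.28, adjusted p 1.02e-05) and in WT (-0.14, adjusted p 0.0223). AT1G69570 (CDF5), to which the files give no name, was called higher in rbohD libraries with a log2 fold change of 0.69. Over the 10 tested genes of the list the values ran from -1.45 to 1.92 in rbohD libraries and from -0.68 to 1.44 in WT. The largest rises were in genes that did not meet the naming rule given below. Of 15 atypical and growth bHLH genes 13 were tested, with 3 higher and 3 lower in WT (median 0.02) and 4 higher and 7 lower in rbohD libraries (median -0.24), beside the same shares of all tested genes. PRE6 (KDR in the files) and PRE1 are small bHLH proteins that free growth factors from their inhibitors. PRE6 fell in rbohD libraries (-1.34, adjusted p 1.94e-11) and in WT (-0.95, adjusted p 3.58e-08), and PRE1 likewise (-1.21, adjusted p 1.13e-10, and -0.81, adjusted p 4.53e-07). IBH1, a growth inhibitor that PRE proteins bind, rose in rbohD libraries (0.83, adjusted p 1.88e-07) and had a value of 0.11 (adjusted p 0.444) in WT.

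**Figure D4:**
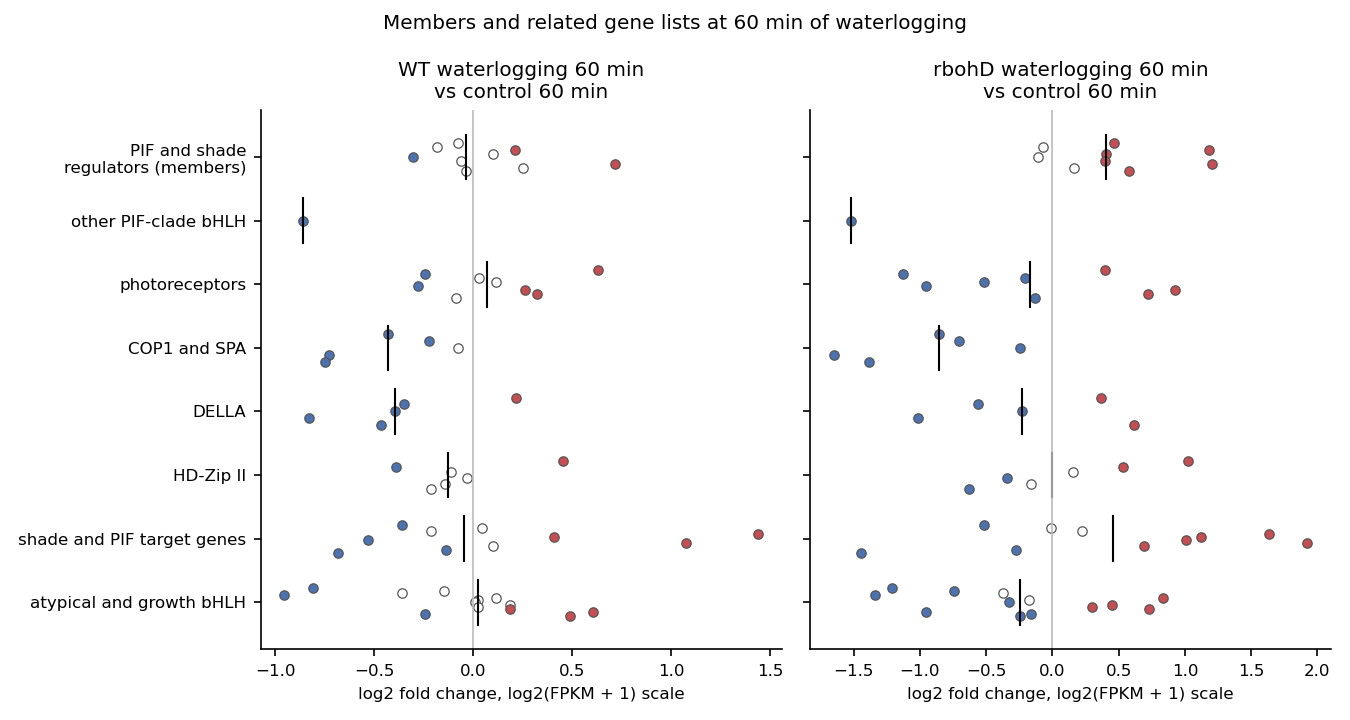
Log2 fold changes on the log2(FPKM + 1) scale (horizontal axes) at 60 min of waterlogging against controls in WT (left) and in libraries labelled rbohD (right), for the members and 7 lists; each point is a tested gene, red called higher, blue called lower, white not called, and black bars are medians. All 5 COP1 and SPA genes lie left of 0 in both panels, with medians of -0.43 and -0.85.

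Likeness of pattern was described over the 10 group means of log2(FPKM + 1), among 12544 other tested genes whose mean reached 5 FPKM. These are correlations over groups that share the scaling of their libraries and carry no test. PIF4 was most like AT2G46220 (Pearson r 0.995) and AT5G18630 (0.994), and among members it was closest to ATHB2 (0.93), PIF1 (0.91) and PIF5 (0.85), which took ranks 169, 292 and 571 among all 12544 genes. PIF1 was most like TRP1 (0.987) and CH1 (0.975), and PIF5 most like HAT1 (0.977) and AT4G32060 (0.975). ATHB2 was most like AT5G65480 (0.972) and AT1G74370 (0.969), PAR2 like PSAH-1 (0.967) and RGLG1 (0.965), PIF7 like AT1G69523 (0.944) and AT5G19300 (0.929), and HFR1 like AT1G34010 (0.902) and AT2G30620 (0.878). Among the PIFs PIF7 had an r of -0.37 to PIF1, -0.59 to PIF4 and -0.64 to PIF5.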

How the data were processed

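RNA from leaves was extracted with a Plant RNeasy kit and sequenced, per the labels' protocols. The deposited files, 1 per library, hold FPKM per gene, scaled by the authors to gene length and library size. Trim Galore 0.6.7, HISAT2 2.2.1, Cufflinks 2.2.1, Cuffdiff and the build TAIR10 are named in the submitters' processing notes, without their roles. The annotation and strand use are not given in the sources used here. FPKM are not counts, so no count model was used. Depth was implied by the authors' confidence bounds. After leaving out 2 repeated identifiers and 2 genes with a failed status, 32820 genes remained.

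A pseudocount of 1 was added and log2 taken. Only genes averaging 1 FPKM or more over the 30 libraries (17491) entered limma 3.58.1 in R 4.3.3, as a model of 10 group means with default eBayes settings and 20 residual degrees of freedom. The limma tests were two-sided. In each of the 17 comparisons p-values were adjusted by the Benjamini-Hochberg method over all tested genes and called under 0.05. The script was tested on simulated data. The members and lists were chosen with earlier results of these data known. All members are named. From each list at most 3 genes are named, those with the largest called change in either 60 min waterlogging comparison among genes averaging 5 FPKM or more whose groups do not overlap. The 2 genes most like each member at that level are named too. Files and RefSeq TAIR10.1 were matched by locus tag (99.13% of genes), and 99.95% of the matched nuclear genes had identical boundaries, so promoters were read from that genome. Python 3.11.15 with pandas 2.3.3 and numpy 2.4.6 handled the tables, and matplotlib 3.10.9 drew the figures.

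Alternatives were a fit of the compared groups alone, the replicate as a block, each library left out in turn, a pseudocount of 0.1, no filter, a filter at 5 FPKM, quantile normalization, protein-coding nuclear genes at equal totals, eBayes with trend and robust options, and a term for high or low 18S rRNA.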

Additional observations from a re-analysis of the deposited data

Results flagged for a closer look

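The effect of 60 min of waterlogging differed between the genotype labels, by the limma interaction term itself, in 5 members, each more positive in libraries labelled rbohD. The interaction was 0.97 for PIF4 (adjusted p 6.34e-11), 0.62 for ATHB2 (adjusted p 0.00599), 0.54 for PIF1 (adjusted p 9.15e-05), 0.45 for HFR1 (adjusted p 0.00503) and 0.31 for PIF5 (adjusted p 0.00238), on the log2(FPKM + 1) scale. That of ATHB2 fell short in a fit of the 4 groups alone (adjusted p 0.051). The waterlogged rbohD groups of PIF1, PIF5, HFR1 and ATHB2 overlapped the waterlogged WT groups, while their 60 min control groups did not overlap. The means of control and waterlogged leaves at 60 min were 46.9 and 108 FPKM for PIF4 in rbohD libraries, and 104.5 and 121 FPKM in WT. The interactions share the 60 min controls with the genotype comparison there. The 18S level, high in all rbohD libraries, moves with the genotype label, and its part in the result was not tested. A term for it cannot test this. The term rests on WT waterlogging 60 min replicate 3 alone and leaves the change within rbohD libraries as it was. With the term the values were 0.97, 0.58, 0.48, 0.43 and 0.29 for PIF4, ATHB2, PIF1, HFR1 and PIF5. Among the tissue markers the interaction was 0.59 for the root gene PYK10, the only one of 6 root markers tested, and ran from -0.55 to 0.32 over the 5 leaf markers, of which 2 were called. All 5 leaf markers were called in rbohD waterlogging, 2 higher and 3 lower, and the part of these markers in the result was not tested.

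The change of PIF4 in untreated leaves from 0 to 60 min also differed between the genotype labels, by -0.30 (adjusted p 0.00218): PIF4 went from 86.0 to 104.5 FPKM in WT and from 47.4 to 46.9 FPKM in rbohD libraries. PYK10 and the summed leaf markers differed between the same 2 rbohD groups, and their part in this was not tested.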

How the results depend on the processing

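Of 153 pairs of tested member and comparison 56 were called, and 37 of these were called under every setting run. The other 19 lost the call under at least 1 setting, 14 pairs short of the threshold passed it under at least 1, and 0 called values changed sign. Losses numbered 10 in fits of only the groups compared, 11 with the 18S term (7 of them only there), 2 with protein-coding nuclear genes at equal totals, 1 with no filter, and 10 without some single library. The cause of these changes was not tested. Fits of only the groups compared use fewer libraries, and whether this lost the calls was not tested either.

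Counts of called members that moved by over 1.5 times were as follows. With the 18S term, rbohD against WT had 3 called members at 0 min (7 in the main result), 2 in the 60 min controls (7) and 1 after waterlogging (3). The term widens the SE, and some values that lost the call hardly moved: PAR2 was at -0.57 at 0 min (-0.57 without the term) and -0.50 in the 60 min controls (-0.49), and after waterlogging PIF4 was at -0.16 (-0.17) and PIF7 at 0.20 (0.19). In fits of only the groups compared there was 1 for rbohD against WT after waterlogging, 0 for WT controls at 10 min and 0 at 30 min against 0 min (1 each), 1 at 60 min (2), and 1 for WT waterlogging 10 min against 0 min (3). With no filter there were 2 for WT controls at 10 min and 2 for the interaction of genotype and control time, PIL1 being the added gene in both.

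Leaving out 1 library at a time gave 1 to 1, 2 to 3 and 3 to 3 called members for WT waterlogging against controls at 10, 30 and 60 min, 6 to 7 for rbohD libraries and 5 to 6 for the interaction. The genotype comparisons gave 5 to 7 at 0 min, 7 to 8 in the 60 min controls and 2 to 4 after waterlogging. Controls against 0 min gave 0 to 1, 0 to 1 and 2 to 2 in WT at 10, 30 and 60 min, 0 to 0 in rbohD libraries and 1 to 2 for their interaction, which reached 2 without WT 0 min replicate 2. Waterlogged leaves against 0 min gave 0 to 3, 2 to 3 and 5 to 5 in WT and 6 to 7 in rbohD libraries, the 0 being without WT 0 min replicate 1.

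Same-numbered libraries of different groups showed little shared deviation (correlations of deviations from -0.145 to 0.212, median 0.00914). The labels give no block, and whether same-numbered libraries shared a harvest or batch was not tested. With the replicate number as a block the count of called members moved from 7 to 8 in the 60 min controls of rbohD against WT, where PIF3 passed. Depth limits PIL1 most, with 8.45 to 32.5 implied fragments per value.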
